A study of Homo sapiens with 17 samples.

Results

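The 5 tRNA genes that punctuate the stretch of the human mitochondrial genome from COX1 to ND4L were analyzed in J2 RIP-seq libraries of non–small cell lung cancer cell lines. They are TRNS1, TRND, TRNK, TRNG, and TRNR, chosen by position, and make up 5 of the 22 tRNA genes and 5 of the 37 genes counted. J2 is a monoclonal antibody against double-stranded RNA (dsRNA), and the captured RNA was polyadenylated in vitro, converted to PCR-cDNA, and read as long nanopore reads. The series holds 17 libraries. H1437, H23, and PC9 cells without treatment gave 3 libraries each, numbered as replicates 1, 2, and 3. In a further experiment each cell line gave 1 library with IMT1, an inhibitor of the mitochondrial RNA polymerase, and 1 control library. H23 cells gave 1 library after siRNA knockdown of ADAR1, the enzyme that edits adenosine to inosine in dsRNA, and 1 control library. The study describes a nontargeting siRNA as the control of the knockdown, which the label of this library does not name. The 4 control libraries carry labels of further replicates, and the alignment names in their descriptions placed them with the experiments. The study describes the untreated libraries as independent experiments, and the labels do not say whether these were separate cultures, so that P values measure the spread between these libraries. The 3 lines are established human lines and each stands for 1 tumor.

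Mitochondrial DNA is transcribed from both strands into long RNAs that carry many genes in a row. Most mRNAs and both rRNAs are flanked by tRNAs, and cutting the tRNAs out, by RNase P at the 5′ end and by ELAC2 at the 3′ end, also frees the RNAs between them. A tRNA gene read together with its neighbor therefore comes from RNA that was not cut at that junction, or from cDNA that joined them. The strand that carries COX1 through ND4L carries TRND, TRNK, TRNG, and TRNR in sense and TRNS1 only as its complement.

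TRNS1 encodes a tRNA for serine and lies at positions 7446 to 7514 of the minus strand (69 bases, complement of the anticodon at 7482 to 7484), on the coordinates of the deposited annotation, whose 37 genes all have the positions that RefSeq gives them. It starts directly after COX1, the gene of a cytochrome c oxidase subunit, and 3 bases separate it from TRND. The other 4 genes lie on the plus strand. TRND, for aspartate, spans 7518 to 7585 (68 bases) and touches COX2. TRNK, for lysine, spans 8295 to 8364 (70 bases), with 25 bases between it and COX2 and 1 base between it and ATP8, a gene of the ATP synthase. TRNG, for glycine, spans 9991 to 10058 (68 bases) and touches COX3 on one side and ND3, a complex I gene, on the other. TRNR, for arginine, spans 10405 to 10469 (65 bases) and touches ND3 and ND4L, another complex I gene. From the start of TRNS1 to the end of TRNR there are 3024 bases.

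Each tRNA gene has a gene row and a tRNA row over the same bases, and the 2 rows do not hold the same counts. For the 5 tRNA genes that have a tRNA gene on either side, both rows held the same count in 83 of 85 combinations of gene and library. For TRNS1, TRND, TRNK, TRNG, and TRNR the rows were equal in 1 of 85, and the gene row was above the tRNA row in 0 of 85. These counts are what the rows would hold if reads that also touch another gene were left out of the gene row, and reads that also touch another tRNA gene out of the tRNA row. The setting itself was not tested. The gene-row count as a percent of the tRNA-row count is called the gene-row share below. Over all 17 libraries the 5 genes held 6873 gene-row reads and 20436 tRNA-row reads, a share of 33.6%, against 43.2% for the other 17 tRNA genes. The 43.2% includes the genes with a tRNA gene on either side, and TRNP, which had 47836 of its 47843 reads on the gene row. A pooled share without them was not computed. Whether counting used the strand is not given in the sources used here. In H1437 replicate 1, 0 of 73 TRNS1 reads were on the gene row, although COX1 lies on the other strand. If the rows count as above, counting by strand would not leave TRNS1 reads out of the gene row for touching COX1. The strand setting was not tested further. Reads of TRNS1 and of RNA complementary to it cannot be told apart here, and likewise for the other 4.

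Total reads ran from 37113 in the ADAR1 knockdown library to 6295486 in H1437 replicate 1, and reads mapped to the mitochondrial genome from 1.14% to 47.2% of them. Levels are given as reads per 1000000 total reads (RPM), and the floor of 3 counts lay between 0.477 and 80.8 RPM. H1437 replicate 1 and PC9 replicate 1 stood apart from the rest, since no read of the 5 genes was on a gene row in either, although their tRNA rows held 2937 and 93 reads. In these 2 libraries the gene rows of the other 17 tRNA genes held 3.36% and 3.97% of the tRNA-row reads, against 11.9% to 82.2% in the other 15 libraries. For the medians, levels, correlations, and ratios below, values without these 2 libraries are given beside those with them.

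TRNG and TRNR had lower gene-row shares than TRNS1, TRND, and TRNK, which lay in the middle of the 22 tRNA genes. The median share over the libraries was 41.6% for TRNS1, 40.2% for TRND, and 43.8% for TRNK (n = 17 each), but 0.830% for TRNG (n = 17) and 2.90% for TRNR (n = 16). From the highest median share down, TRNK, TRNS1, and TRND had ranks 10, 11, and 12 among the 22 tRNA genes, TRNR rank 20, and TRNG rank 22, with TRNL1 between the last 2 at 1.02%. The median over the other 17 tRNA genes was 67.6%. Among these, TRNP and the genes with a tRNA gene on either side each had a median of 100%, which lowers the ranks of all others. Without H1437 replicate 1 and PC9 replicate 1 the medians were 42.2% for TRNS1, 44.4% for TRND, 52.5% for TRNK, 1.26% for TRNG, and 4.03% for TRNR (n = 15 each), with the same ranks for TRNK, TRNR, and TRNG. Whether the gene layout has a part in this order was not tested. Of the 15 libraries with any gene-row read of the 5 genes, 13 had both TRNG and TRNR below TRNS1, TRND, and TRNK. The exceptions were the IMT1 library of PC9, where TRNS1 at 23.3% was below TRNR at 33.3%, the latter from 6 tRNA-row reads, and the ADAR1 knockdown library, which held 1 gene-row read.

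**Figure D1:**
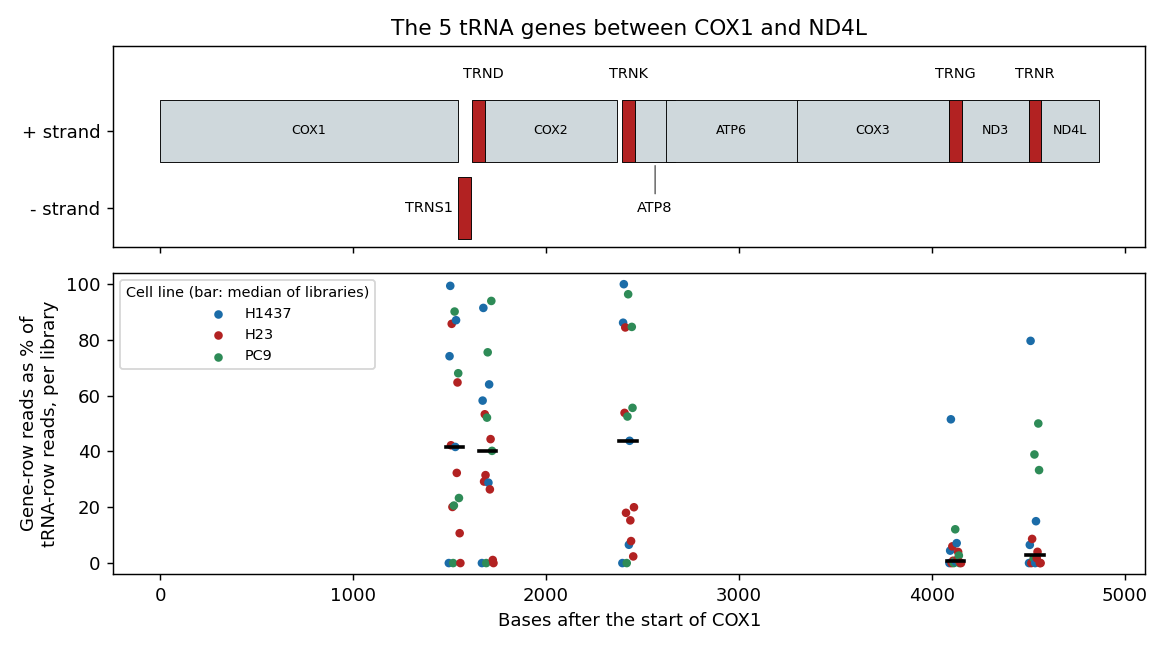
Positions of the 5 tRNA genes (red) and their neighbors (grey) in bases after the start of COX1, by strand, above the gene-row share of each tRNA gene. Each point is 1 library colored by cell line, shifted sideways for visibility, and each bar is the median. Points of TRNS1, TRND, and TRNK spread from 0% to above 90%, while most points of TRNG and TRNR lie below 10%.

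TRNG showed the contrast most plainly in single libraries. In H1437 replicates 1, 2, and 3 its gene row held 0 of 2190, 5 of 112, and 87 of 169 tRNA-row reads, shares of 0%, 4.46%, and 51.5%. In H23 it held 0 of 51, 27 of 451, and 6 of 723 (0%, 5.99%, and 0.830%), and in PC9 0 of 83, 2 of 315, and 14 of 116 (0%, 0.635%, and 12.1%). The count of 0 of 2190 allows a share of up to 0.137%, 0 of 51 up to 5.88%, and 0 of 83 up to 3.61%. Such limits are 3 counts as a percent of the tRNA-row reads, here and below, except where an exact binomial limit is named. In 8 of these 9 libraries most TRNG reads were thus missing from the gene row, and H1437 replicate 3 was the exception.

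TRNR followed the same order. Its share was 0%, 6.52%, and 79.6% in H1437 replicates 1, 2, and 3 (of 486, 46, and 49 tRNA-row reads) and 0%, 8.65%, and 0.557% in H23 (of 2, 208, and 359). PC9 replicate 1 had no TRNR read on either row, so that no share exists there, and PC9 replicates 2 and 3 had 1.69% of 59 and 38.9% of 18 reads. The 0 of 486 in H1437 replicate 1 allows up to 0.617%. The highest TRNR share of each line lay in the library that was also highest for TRNG in that line.

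TRNS1, TRND, and TRNK ran over almost the whole scale. TRNS1 had shares of 0%, 74.1%, and 99.3% in H1437 replicates 1, 2, and 3, of 42.2%, 85.7%, and 20.1% in H23, and of 0%, 20.6%, and 90.1% in PC9. TRND had 0%, 58.2%, and 91.4% in H1437, 29.2%, 53.3%, and 31.5% in H23, and 0%, 52.1%, and 75.5% in PC9. TRNK had 0%, 86.1%, and 99.9% in H1437, 53.8%, 84.4%, and 18.0% in H23, and 0%, 52.5%, and 96.3% in PC9. In each line the same library had the highest share of all 3 genes. In H1437 replicate 1 the zeros stand for 0 of 73 TRNS1, 0 of 115 TRND, and 0 of 73 TRNK reads, which allow up to 4.11%, 2.61%, and 4.11%. In PC9 replicate 1 they rest on 2, 7, and 1 reads. Counting error was small beside this spread in most libraries, with 95% Wilson intervals of 98.6% to 99.7% for TRNS1 in H1437 replicate 3 and 16.3% to 24.4% in H23 replicate 3.

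The cell lines did not differ in gene-row share beyond the spread between replicates. For TRNS1 the means were 57.8% ± 51.6 (H1437), 49.3% ± 33.4 (H23), and 36.9% ± 47.2 (PC9; SD of 3 libraries per line). The two-sided exact permutation test of the F statistic across the lines gave P = 0.886. The same exact permutation test gave P = 0.914 for TRND, 0.921 for TRNK, 0.632 for TRNG, and 0.636 for TRNR, which had n = 2 in PC9. After Benjamini-Hochberg adjustment over the 22 tRNA genes, 0 of the 5 and 0 of the 22 (0%) passed, and 0 did without adjustment. Without replicate 1 of each line, the exact permutation P values of the 5 genes lay between 0.333 and 0.667.

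The rows of the neighboring mRNA genes carried matching reads. Each mRNA gene also has a coding sequence (CDS) row, and if the rows count as their totals imply, the reads it holds above its gene row are those that touch a second gene other than an mRNA gene. For COX3, whose other neighbor is an mRNA gene, these reads numbered 2139 in H1437 replicate 1, beside the 2190 TRNG reads that were not on the TRNG gene row. They never outnumbered the TRNG reads, in 17 of 17 libraries. As a percent of the TRNG tRNA row they ran from 43.7% in H23 replicate 3 through a median of 70.0% to 100% in PC9 replicate 1, with 97.7% in H1437 replicate 1. Under that counting these are the TRNG reads that also covered COX3 and no other mRNA gene. In H23 replicate 3 the remainder was larger, since the 717 TRNG reads beyond the gene row exceeded the COX3 and ND3 reads together by 233. Which genes these 233 covered cannot be told from the rows.

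At the other end, few of the COX1 reads that touched a tRNA gene were counted on the TRNS1 row. COX1 had 1210 reads on its CDS row above its gene row in H1437 replicate 1, where TRNS1 had 73 such reads and TRNY, the tRNA gene on the far side of COX1, had 833. TRNS1 reads came to between 3.49% and 18.4% of the COX1 reads (median 8.17%, n = 17), and TRND reads to at most 83.8% of the corresponding COX2 reads (median 46.7%). In 17 of 17 libraries the COX1 reads exceeded TRNS1 and TRNY together, by 304 reads in H1437 replicate 1 and by 1312 in H23 replicate 3. If the strand was not used, a read running from COX1 across TRNS1 into TRND would touch 2 tRNA genes and drop out of both tRNA rows. Under the same counting the tRNA rows would then miss reads that join TRNS1 and TRND.

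The levels of the 5 genes on the tRNA rows did not differ between lines beyond the spread of the libraries of a line. TRNG, with the highest mean of them in H23, stood at 348, 212, and 249 RPM in H1437 replicates 1, 2, and 3, at 417, 750, and 1220 in H23, and at 166, 575, and 160 in PC9. The means were 270 ± 70.0, 796 ± 404, and 300 ± 238 (SD, n = 3 each). H23 lay above H1437 in every library, and 1 PC9 library overlapped with H23. The exact permutation test across the lines gave P = 0.0750, adjusted P = 0.206 over the 22 tRNA rows.

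TRNS1 stood at 11.6, 220, and 1501 RPM in H1437 replicates 1, 2, and 3, at 368, 1026, and 640 in H23, and at 3.99, 239, and 238 in PC9. TRND, beside it, stood at 18.3, 766, and 617 in H1437, at 196, 1516, and 579 in H23, and at 14.0, 396, and 418 in PC9. Both were lowest in H1437 replicate 1 and PC9 replicate 1, and TRNS1 was highest in an H1437 library, so that the lines overlapped. The mean of TRNS1 was 577 ± 806 RPM for H1437, 678 ± 330 for H23, and 160 ± 135 for PC9 (SD of 3 libraries; exact permutation P = 0.504, adjusted P = 0.648). That of TRND was 467 ± 396, 764 ± 679, and 276 ± 227 (exact permutation P = 0.525, adjusted P = 0.648).

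TRNK ranged from 2.00 in PC9 replicate 1 to 1093 in H1437 replicate 3, with means of 414 ± 592 RPM for H1437, 394 ± 392 for H23, and 98.4 ± 92.0 for PC9 (SD of 3 libraries; exact permutation P = 0.589, adjusted P = 0.648). TRNR was steady in H1437, at 77.2, 87.3, and 72.3 in replicates 1, 2, and 3, whereas H23 gave 16.4, 346, and 606 and PC9 0, 108, and 24.9. PC9 replicate 1 had 0 TRNR reads, at a floor of 5.99 RPM for 3 counts. The TRNR means were 78.9 ± 7.63, 323 ± 295, and 44.2 ± 56.4 (SD, n = 3 each; exact permutation P = 0.193, adjusted P = 0.424). In all, 0 of the 5 tRNA rows passed the adjusted or the unadjusted test, where 0 of 22 rows (0%) passed adjusted and 5 of 22 (22.7%) unadjusted. The unadjusted outcome turned on single libraries for TRNG and TRNR. Without H23 replicate 1 the exact permutation P was 0.0143 for TRNR and 0.0429 for TRNG, and without PC9 replicate 2 it was 0.0429 for TRNG. Without H1437 replicate 1 and PC9 replicate 1 the exact permutation P values of the 5 rows lay between 0.229 and 0.829. Leaving out any 1 replicate kept the adjusted P of each of the 5 between 0.0786 and 0.954.

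**Figure D2:**
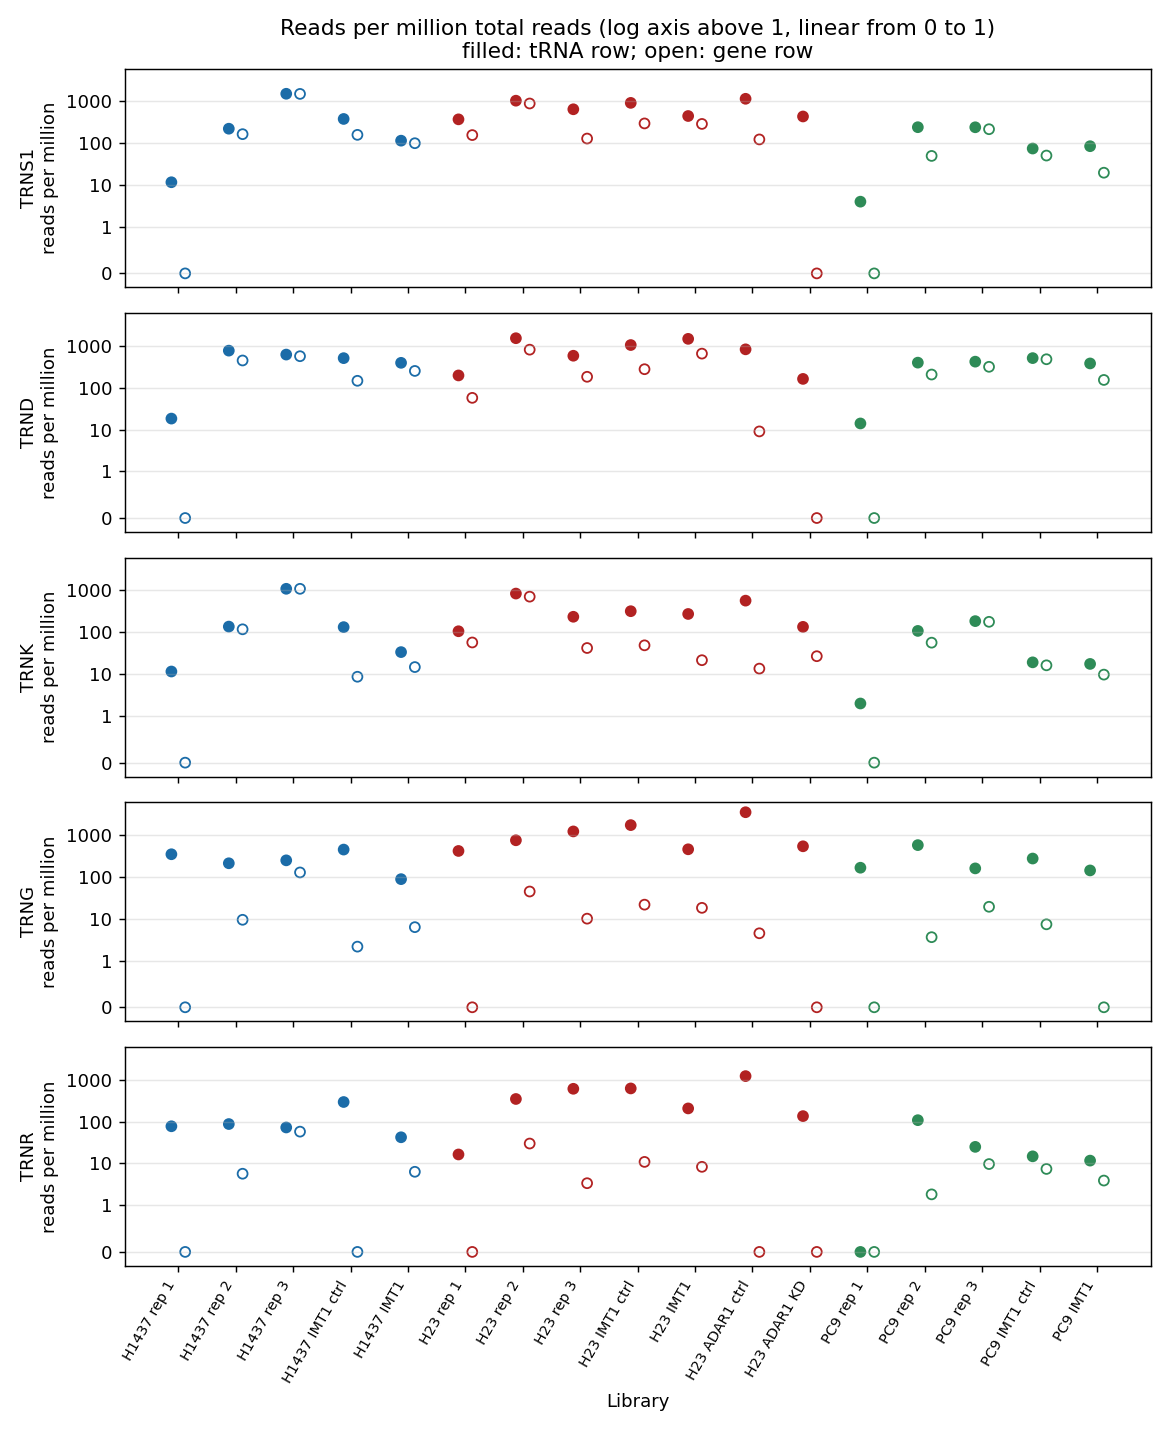
RPM (reads per 1000000 total reads) of each tRNA gene in the 17 libraries, with tRNA rows filled and gene rows open, on an axis that is logarithmic above 1 and linear from 0 to 1. Colors give the cell line (blue H1437, red H23, green PC9). Gene rows of all 5 genes sit at 0 in H1437 replicate 1 and PC9 replicate 1, while TRNG keeps 348 and 166 RPM on its tRNA row there.

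On the gene rows the same comparison gave exact permutation P values between 0.607 for TRNS1 and 0.754 for TRND, and 0 of the 5 genes passed. Without H1437 replicate 1 and PC9 replicate 1 they lay between 0.495 and 0.714 (exact permutation). Of all 37 gene rows, 0 (0%) passed adjusted and 16 (43.2%) unadjusted. All 6 flanking mRNA genes, COX1, COX2, ATP8, COX3, ND3, and ND4L, were among the 16 and had their highest mean in H23 (smallest exact permutation P = 0.00714). For the tRNA genes between them, the highest gene-row mean was in H23 in 1 of 5, TRND, at 349 ± 402 RPM beside 336 ± 297 in H1437 (SD, n = 3 each). That count rests on H1437 replicate 3, which had 1490 RPM of TRNS1 and 1092 of TRNK on the gene rows. Without it the H1437 means were 81.6 RPM for TRNS1 and 58.8 for TRNK, beside 388 and 270 in H23, and the highest mean was in H23 for 5 of 5. On the tRNA rows of all libraries it was in H23 for 4 of 5. Among the other 17 tRNA genes it was in H23 for 13 on the gene rows and 15 on the tRNA rows, and the difference between these counts was not tested. All these counts are per total reads. Of the total reads, 11.0% to 24.4% mapped in the H23 libraries, against 1.89% to 7.45% in those of H1437 and PC9. The part of this difference in the counts was not tested.

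Per base, no pair of neighbors in the order of levels was apart beyond the spread. Over the 9 untreated libraries the mean level in RPM per kilobase was 7386 ± 6781 for TRND, 6838 ± 7258 for TRNS1, 6696 ± 5124 for TRNG, 4315 ± 5562 for TRNK, and 2286 ± 3073 for TRNR (SD, n = 9 each). These are ranks 10, 12, 13, 15, and 20 among the 22 tRNA genes. By the exact sign-flip permutation test of log2 ratios within libraries, adjacent genes in this order had adjusted P values between 0.25 and 0.312 over 4 tests. TRNG was above TRNK in 6 of 9 libraries by a mean of 1.77 ± 2.52 on the log2 scale (SD, n = 9; exact permutation P = 0.0625). By the median the order differed, since TRND had 6142, TRNG 5116, and TRNS1 3468. Without H1437 replicate 1 and PC9 replicate 1 the means kept their order, from 9429 ± 6277 for TRND to 2769 ± 3353 for TRNR (SD, n = 7 each), and adjacent genes had adjusted P values between 0.500 and 0.766 by the same exact permutation test.

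Across the 17 libraries, TRNS1 varied most like TRNK, which lies beyond COX2, and not most like TRND, which is next to it. The Pearson correlation of log2(RPM + 1) was 0.96 for TRNS1 with TRNK and 0.92 for TRNS1 with TRNE, against 0.84 for TRNS1 with TRND. TRND varied most like TRNE (0.89) and TRNN (0.88), and TRNK most like TRNS1 (0.96) and TRNE (0.90). TRNG varied most like TRNI (0.94) and TRNW (0.86), and TRNR most like TRNW (0.82) and TRNT (0.79). TRNG and TRND, which share a strand, correlated at 0.35. Several of these values rest on H1437 replicate 1 and PC9 replicate 1. Without them the correlation of TRNS1 with TRND was 0.41 in place of 0.84, while that of TRNS1 with TRNK was 0.96 again and TRNG with TRNI at 0.94 (n = 15). TRND was then most like TRNL2 (0.75) and TRNC (0.72), and TRNR most like TRNG and TRNW (0.83 each). The points share their library and its depth, so that these values are descriptions over 17 libraries of 3 lines.

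TRNS1 against TRND had no steady direction. On the tRNA rows log2(TRNS1/TRND), with 0.5 added to each count, was -0.65, -1.80, and 1.28 in H1437 replicates 1, 2, and 3, 0.89, -0.56, and 0.14 in H23, and -1.58, -0.73, and -0.81 in PC9. TRND was thus the higher of the pair in each PC9 library, while H1437 and H23 libraries lay on both sides. In reads, H1437 replicate 3 had 1017 of TRNS1 and 418 of TRND, whereas replicate 2 had 116 and 404. Per base, the mean over the 9 libraries was -0.44 ± 1.03 (SD, n = 9; TRNS1 higher in 3; exact permutation of signs, two-sided, P = 0.227).

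Between lines the log2 ratio was higher in H23 than in PC9 by 1.20, with every H23 library above every PC9 library, at exact permutation P = 0.100, the smallest that 3 against 3 allows. H23 differed from H1437 by 0.55 (exact permutation P = 0.600) and H1437 from PC9 by 0.65 (exact permutation P = 0.700). The exact permutation test of the 3 lines together gave P = 0.386. Without H1437 replicate 1 and PC9 replicate 1 the exact permutation P across the lines was 0.657, and the mean over the remaining 7 libraries was -0.25 ± 1.07 per base (SD; exact sign-flip P = 0.562). On the gene rows, 7 of the 9 libraries had a read of either gene, TRNS1 was the higher in 3 of them, and the mean per base was -0.26 ± 1.31 (SD, n = 7; exact sign-flip permutation test, P = 0.641). The gene rows of the 3 lines gave exact permutation P = 0.418, with the libraries without reads entered as a ratio of 1, and 0.410 without them.

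**Figure D3:**
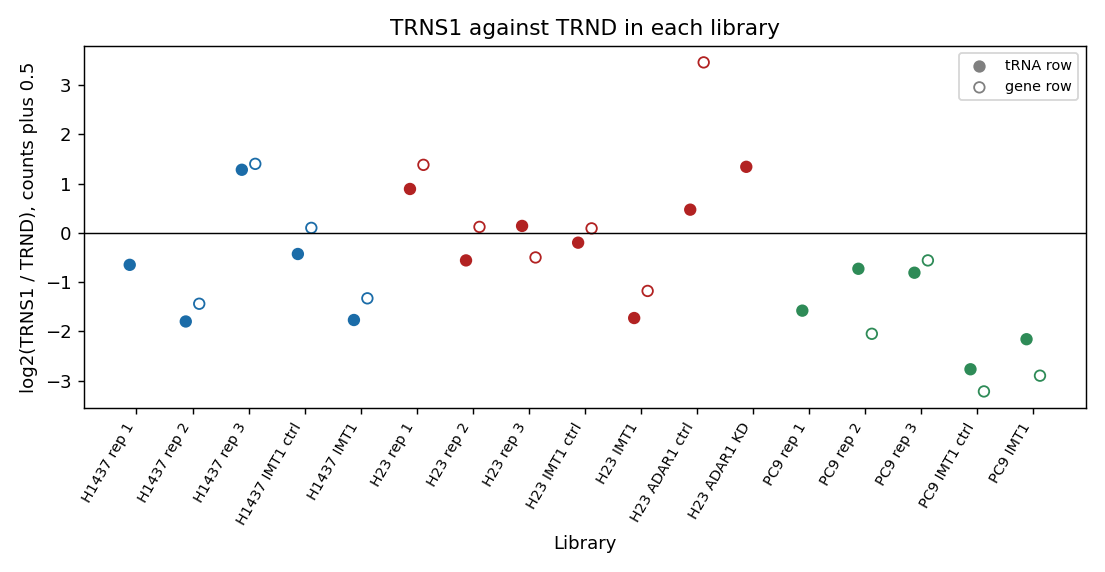
The log2 ratio of TRNS1 to TRND in each library, on tRNA rows (filled) and gene rows (open), with 0.5 added to each count and libraries without a read of either gene left out. Colors give the cell line (blue H1437, red H23, green PC9), and the line at 0 marks equal counts. All 5 PC9 libraries lie below 0 on the tRNA rows, from -0.73 to -2.77.

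A count model on the gene rows called none of the 5 genes in H23 against the other lines. By edgeR's quasi-likelihood test on the gene rows (TMM normalization, Benjamini-Hochberg adjustment), 0 of 35 gene rows tested (0%) differed in H23 against H1437, H23 against PC9, or H1437 against PC9, and 0 did at an unadjusted P of 0.05. TRNR did not reach 10 counts in 3 libraries and was not tested. DESeq2 called 4, 2, and 0 gene rows, and 0 of them were among the 5 genes. For H23 against H1437 the edgeR log2 changes of TRNS1, TRND, TRNK, and TRNG were -3.05, -2.26, -3.25, and -3.84. Their standard errors were 2.09 to 2.44 on the log2 scale, and their adjusted edgeR P values lay between 0.548 and 0.561. For H23 against PC9 the changes were -0.40, -1.43, -0.85, and -1.44, at adjusted edgeR P values between 0.873 and 0.929. When edgeR scaled by total reads in place of TMM, the changes against H1437 were -0.51, 0.06, -0.58, and -1.26. Those against PC9 were then 2.14, 1.01, 1.78, and 1.28. The direction against PC9, and that of TRND against H1437, thus depended on the scaling. With TMM and without H1437 replicate 3, TRNS1, TRND, and TRNK changed by 0.61, -1.05, and 0.44 against H1437. With the replicate number as a block over the 9 libraries, TRNS1, TRND, TRNK, and TRNG changed by 0.87, 0.03, 0.57, and -2.11 against H1437. Against PC9 that block gave 2.71, 0.55, 1.99, and 0.13. Only TRNG against H1437 kept its direction with the block.

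For H1437 against PC9 the outcome depended on pairing. The labels give replicate numbers but do not say that libraries of different lines were paired. The same-numbered libraries of these lines deviated together (correlations of 0.89, 0.51, and 0.93 over 35 genes), and on that ground they were treated as pairs. The pairing was thus taken from the same counts that the blocked fit tests, so that its P values are not independent support for a difference. Without pairs TRNS1 was higher in H1437 by 2.65 ± 2.26 on the log2 scale (SE, n = 3 per line) and TRNK by 2.40 ± 2.26, both at an edgeR adjusted P = 0.933. With the replicate number as a block and these 2 lines alone, edgeR called 10 of 33 gene rows (30.3%), 9 of them higher in H1437 (27.3%). TRNS1 was higher in H1437 by 2.28 ± 0.61 on the log2 scale (SE; edgeR adjusted P = 0.00419) and TRNK by 1.88 ± 0.54 (adjusted P = 0.00608). TRND at 0.98 did not pass (edgeR adjusted P = 0.149), and the median over the 33 rows was 0.38. TRNG and TRNR were not tested there. In reads, the gene row of TRNS1 held 0, 86, and 1010 in H1437 replicates 1, 2, and 3 and 0, 27, and 155 in PC9, and that of TRNK 0, 62, and 740 and 0, 31, and 129. Replicate 1 gave no read to either gene in either line. Without that pair the edgeR adjusted P was 0.0717 for TRNS1, at 2.31, and 0.0793 for TRNK, at 1.90, and 1 of 33 rows passed. Without replicate 2 or 3 neither gene could be tested.

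On the tRNA rows, IMT1 libraries held fewer TRNG and TRNR reads per total reads than their controls in each cell line. In H1437 the TRNG tRNA row stood at 450 RPM in the control and 88.6 with IMT1, in H23 at 1726 and 457, and in PC9 at 275 and 143. For TRNR the pairs were 293 and 42.2, 618 and 206, and 14.8 and 11.7 RPM, where the PC9 pair rests on only 10 and 6 reads. The log2 ratio averaged -1.73 ± 0.71 for TRNG and -1.55 ± 1.24 for TRNR (SD, n = 3 pairs), and the exact sign-flip test by permutation gave each P = 0.25, the smallest that 3 pairs allow. The TRNG level with IMT1 was below each of the 4 libraries without IMT1 in H1437 and in PC9 and within their range in H23.

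TRNK was also lower in 3 of 3 pairs, but by little in 2 of them. Control and IMT1 libraries had 133 and 33.7 RPM in H1437, 319 and 274 in H23, and 19.2 and 17.6 in PC9 (mean log2 ratio -0.76 ± 1.03, SD, n = 3; exact permutation P = 0.25). The PC9 pair rests on 13 and 9 reads. TRNS1 had 376 and 114 RPM in H1437, 910 and 442 in H23, and 74.0 and 84.1 in PC9. TRND stood at 507 and 392 in H1437, at 1042 and 1464 in H23, and at 508 and 379 in PC9, so that the pairs disagreed in direction. In total 3 of the 5 genes, and 7 of 22 tRNA rows (31.8%), were lower in all 3 pairs. After adjustment 0 of 22 tRNA rows (0%) passed, which 3 pairs cannot achieve.

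The percent of reads mapped was lower with IMT1 in the same pairs, with log2 ratios of -2.21 in H1437, -1.64 in H23, and -0.77 in PC9. Its part in the result was not tested. Per mapped read in place of total reads, TRNG alone of the 5 was lower in all 3 pairs, at a mean log2 ratio of -0.19, while TRNS1, TRND, and TRNK averaged 0.68, 1.44, and 0.78 above the controls. The median log2 ratio of the other 17 tRNA rows per total reads was -1.58 in H1437, -1.42 in H23, and 0.13 in PC9.

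**Figure D4:**
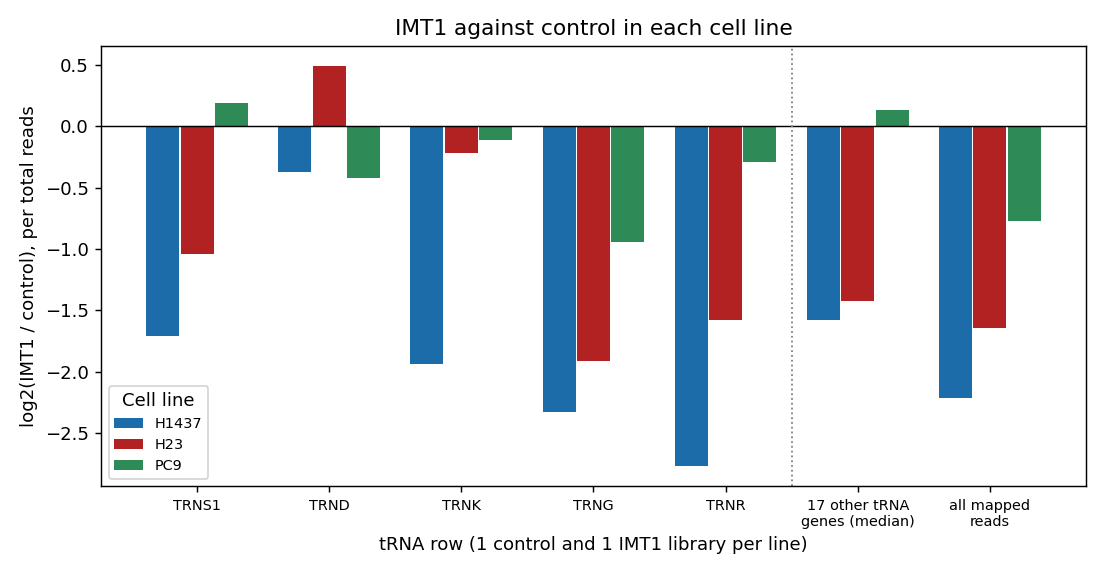
Bars give log2 of IMT1 over control, per total reads, for the tRNA row of each gene in H1437 (blue), H23 (red), and PC9 (green), with 1 library per bar and condition and so no error bar. Right of the dotted line are the median of the other 17 tRNA genes and all reads mapped to the mitochondrial genome. TRNG lies below 0 in each line, at -2.33, -1.91, and -0.94, and TRND within 0.5 of 0.

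Gene-row shares with IMT1 lay on opposite sides of the control in different lines. TRNS1 had 41.6% in the control and 87.0% with IMT1 in H1437, 32.3% and 64.7% in H23, but 68.0% and 23.3% in PC9. The TRND pairs were 28.8% and 64.0%, 26.4% and 44.4%, and 93.9% and 40.2%. TRNG was at or below 7.14% in all 6 libraries, with 0 of 73 reads on the gene row in the IMT1 library of PC9, which allows up to 4.11%. None of the 5 genes had 1 direction in all 3 pairs, and the exact sign-flip permutation P values lay between 0.500 and 1.00. Among the other 17 tRNA genes the share with IMT1 was higher for 11, lower for 1, and equal for 5 in H1437, and likewise in H23. In PC9 it was higher for 2, lower for 9, and equal for 6. Genes with a tRNA gene on either side have nearly equal rows and little room to differ. On the gene rows edgeR called 0 of 33 rows (0%), with 2 at an unadjusted P under 0.05, and DESeq2 3, none of them TRNS1, TRND, or TRNK, the 3 of the 5 genes that could be tested.

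The difference in log2(TRNS1/TRND) on the tRNA rows, IMT1 minus control, was -1.35 in H1437, where TRNS1 and TRND went from 173 and 233 reads to 54 and 186. It was -1.53 in H23, from 502 and 575 reads to 266 and 881. In PC9 it was 0.61, from 50 and 343 reads to 43 and 194. The mean difference was -0.76 ± 1.18 (SD, n = 3; exact sign-flip permutation P = 0.500).

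The ADAR1 knockdown library of H23 had 1 counterpart and no replicate, so that no test was made. TRNG held 775 tRNA-row reads in the control and 20 in the knockdown library, or 3504 (exact Poisson 95% interval 3262 to 3760) and 539 (329 to 832) RPM. TRNR held 269 and 5, or 1216 (1075 to 1371) and 135 (43.7 to 314). The intervals cover counting error only. The control library had the highest TRNG, TRNR, and TRNS1 level of the H23 libraries, above the 417 to 1726 that TRNG spanned in the other 4 H23 libraries without IMT1 or knockdown.

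TRNS1 stood at 1139 (1003 to 1289) and 431 (246 to 700) RPM, TRND at 823 (708 to 952) and 162 (59.3 to 352), and TRNK at 570 (475 to 678) and 135 (43.7 to 314). All 5 genes, as all 22 tRNA rows (100%), were lower in the knockdown library than in its control. The other 4 H23 libraries without IMT1 or knockdown spanned 368 to 1026 RPM for TRNS1 and 106 to 841 for TRNK. For TRNG they spanned 417 to 1726, and for TRNR 16.4 to 618. The knockdown levels of these genes lay within those ranges. TRND at 162 lay below its range of 196 to 1516. The share of mapped reads was 0.234 times that of the control, and the ratios of the 5 genes ran from 0.111 for TRNR to 0.378 for TRNS1, with a median of 0.148 for the other 17 tRNA genes. Per mapped read the ratio was 1.62 for TRNS1 and 1.01 for TRNK, and 0.840, 0.657, and 0.473 for TRND, TRNG, and TRNR.

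TRNS1 was the higher of the pair with TRND in both libraries, with log2 ratios of 0.47 in the control, from 252 and 182 reads, and 1.34 in the knockdown library, from 16 and 6. The gene-row share in the control library was 10.7% for TRNS1 (exact binomial 95% interval 7.18% to 15.2%), and TRND had 2 of 182 reads on the gene row (0.133% to 3.91%). It was 2.38% for TRNK (0.494% to 6.80%), 0.129% for TRNG (0.00327% to 0.717%), and 0 of 269 for TRNR (0% to 1.36%). The knockdown library had 1 gene-row read of the 5 genes, for TRNK, among 52 tRNA-row reads. There, 0 of 20 TRNG reads and 0 of 16 TRNS1 reads allow shares of up to 16.8% and 20.6% (exact binomial 95% limits). At this depth a fall or a small rise in share was not detectable.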

How the data were processed

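The authors base-called the nanopore reads, mapped them to the mitochondrial genome alone, and deposited mapped, unmapped, and total read counts and raw counts per annotated feature, which featureCounts assigned with a minimum overlap of 6 bases. The submitters' processing notes name minimap2 2.17-r941, SAMtools 1.10, bedtools, and featureCounts. The methods give both a setting that counts a read on each feature it overlaps and an exclusion of overlapping reads. The percent of mapped reads that the authors deposited was recomputed from the counts. A row without a feature name was left out.

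Groups came from the labels. The 5 genes, the lists, and the tests were chosen with earlier results of these data known. The text names these 5 genes, their 6 mRNA neighbors, and, for each of the 5, the 2 tRNA genes most like it. TRNY, TRNL1, TRNL2, TRNC, and TRNP were named after their values were seen. Gene-row counts were tested with edgeR 4.0.16 (rows that reached 10 counts in 3 or more libraries) and DESeq2 1.42.0 in R 4.3.3, and values per 1000000 total reads (RPM) by exact permutation in Python. The code was tested on simulated data. By chi-square tests every 2 replicates of a line differed beyond sampling noise, and none were merged. The replicate numbers count as pairs only for H1437 and PC9, where all 3 correlations of deviations exceeded 0.1; with H23 they ran from -0.79 to 0.51. Alternatives that leave out H1437 replicate 1 and PC9 replicate 1 or H1437 replicate 3, keep only replicates 2 and 3, or drop pairs from the blocked fit, were chosen after seeing the data. Intervals and floors cover counting error only, since PCR reads are not independent molecules.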

Additional observations from a re-analysis of the deposited data

Results flagged for a closer look

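Groups of untreated libraries hold 3 samples and were not tested for outliers. The IMT1 pairs lay on opposite sides of their controls between cell lines for several values. Each line has 1 pair, and the differences between lines were not tested.

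The log2 ratio of IMT1 to control per total reads was -1.71 in H1437, -1.04 in H23, and 0.19 in PC9 for the TRNS1 tRNA row. For the TRND tRNA row it was -0.37, 0.49, and -0.42 in the same order. The log2 ratio of TRNS1 to TRND changed by -1.35, -1.53, and 0.61.

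The gene-row share of TRNS1 changed by 45.4 percentage points in H1437, 32.4 in H23, and -44.7 in PC9, and that of TRND by 35.2, 17.9, and -53.7. For TRNK the changes were 37.2, -7.46, and -29.1 points, for TRNG 6.66, 2.74, and -2.69, and for TRNR 15.0, 2.27, and -16.7. Shares were thus lower with IMT1 in PC9 and higher in H1437 for each of the 5 genes. The TRNK and TRNR values of PC9 rest on 13 or fewer tRNA-row reads per library.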

How the results depend on the processing

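Calls for single genes of the 5 changed in 1 setting, the replicate block of H1437 and PC9 alone, where edgeR's calls went from 0 to 10 gene rows, TRNS1 and TRNK among them; leaving out a pair gave 0 to 1 calls and none of the 5 genes. The block changed no other call: over all 9 libraries it left edgeR at 0 rows in each comparison, and exact permutation within replicate numbers left 0 tRNA rows past adjustment. With untreated and control libraries together, 2 tRNA rows and 16 gene rows differed between lines, 0 of them of the 5 genes (TRNG and TRNR adjusted P = 0.0776). DESeq2 called 4, 2, and 3 gene rows for H23 against H1437, H23 against PC9, and IMT1. TRNS1 against TRND on tRNA rows was -0.67 over all 17 libraries (exact permutation P = 0.0382). That test took IMT1 and knockdown libraries, their controls, and several libraries of a line as separate units. Its P value thus does not measure the spread between untreated libraries. Leaving out 1 replicate of the 9 untreated libraries gave -0.66 to -0.27 on tRNA rows and -0.40 to 0.03 on gene rows. Without H1437 replicate 3 the edgeR change of TRNS1, TRND, and TRNK between H1437 and PC9 turned to -1.01, -0.38, and -1.29, and TRND was -0.34 with the 22 tRNA rows in place of gene rows; leaving out each replicate in turn gave up to 4.97, 2.06, and 4.34 (without PC9 replicate 3). Per mapped read 1 gene, not 3, was lower in all IMT1 pairs (TRNS1 0.68, TRND 1.44, TRNK 0.78), and 3 genes, not 5, were lower with ADAR1 knockdown (log2 TRNS1 0.69, TRNK 0.02). The mean TRND change with IMT1 was 0.24 against the mean of untreated and IMT1 control libraries, 0.04 without H1437, and 0.06 without PC9, and its share change 0.23 as a log2 ratio. The causes were not tested. The edgeR changes of single genes in H23 against the other lines, some of which changed direction, were not classed. Of 467 values under alternatives, 438 were classed as the same. For levels, shares, and TRNS1 to TRND ratios across lines, this means the same side of the threshold of 0.05, whichever line was highest. For counts of rows it means an equal or similar count. For the remaining values the direction was kept as well. Depth limits TRNR and the knockdown library most.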
